A study of Saccharomyces cerevisiae with 14 samples.

Results

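The genes described here are 42 Saccharomyces cerevisiae genes of mitosis, the spindle checkpoint and cytokinesis, out of 5449 S. cerevisiae genes that the array annotation names. A gene entered through a probe set annotated to it alone, with the brightest kept where there were several. Each of the 42 had 1 such probe set. They fall into 6 role groups: mitotic cyclins and their transcription factors (8 genes), the anaphase-promoting complex with securin and separase (7), mitotic exit (7), spindle motors, midzone and chromosomal passenger proteins (8), the spindle checkpoint (5), and cytokinesis and the bud neck (7). The genes were chosen by function, with earlier results of these data known.

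A budding yeast cell enters mitosis when cyclins of the Clb family activate the kinase Cdc28, and it leaves mitosis when the anaphase-promoting complex marks securin and the cyclins for destruction and the mitotic exit network releases the phosphatase Cdc14. The checkpoint proteins hold the complex inactive until chromosomes are attached to the spindle. Many of these genes are transcribed in a burst late in G2 and early in mitosis, driven by Mcm1, Fkh2 and Ndd1, and the group is known as the CLB2 cluster, so their RNA marks dividing cells.

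The cells were the lager yeast CB11, drawn from 1 production vessel in a fourth-generation wort fermentation, in which the yeast had already served several earlier fermentations. Samples were taken 8, 30, 60, 80 and 102 h after the yeast was added to the wort, with 2 arrays for 30 h and 3 for each of the other times, 14 in all. All groups share the strain, the wort and the vessel, and time is the only difference that the labels give. RNA quality was uneven over the times, as given below. The labels do not say that replicates came from different cultures, and the p-values therefore speak only of the spread among these samples, which can be technical in origin. Lager yeasts are hybrids, and a probe set may read transcripts of both parental genomes.

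Values are quantile-normalized signal on a linear scale, and changes are on the log2 scale with the standard error of a linear model of all arrays (limma). A call is a Benjamini-Hochberg adjusted p under 0.05 over the 5338 probe sets tested. All 42 genes were tested, and 37 were above the background threshold, a signal of 22.1, on all 14 arrays. The exceptions were FKH1, CIN8, IPL1, HOF1 and CHS2, each below it on 1 or 2 arrays. Correlations between arrays of 1 time ran from 0.919 to 0.994. RNA integrity was read from 6 control transcripts with probe sets at both ends. Their mean 5′ to 3′ ratio on the log2 scale was -3.30 on 8 h replicate 1. At 60 h it was -4.08 on replicate 1 and -1.66 on replicate 2, and the other 11 arrays lay between -0.736 and -0.364. The deposited signal of the 5′ probe set of 18S ribosomal RNA was 120 to 186 on these 3 arrays, 860 and 1380 on the other 8 h arrays, and 3500 to 8870 on all arrays of the remaining times and on 60 h replicate 3. Its part in changes against 8 h was not tested.

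Over the whole course, 28 of the 42 genes passed the F-test for any change, or 66.7%, next to 68.5% of all probe sets tested. The genes of cell division were thus called about as often as other genes. Their time means spanned a median of 0.96 on the log2 scale, against 0.87 for all tested. CDC23 spanned the least, at 0.17, and CHS2 and HOF1 the most, at 3.45. Of the 28 that passed, 18 peaked at 8 h by their mean, 1 peaked at 30 h, 5 peaked at 60 h, and 2 each peaked at 80 h and 102 h. Peak times were not tallied over all probe sets that passed, so whether this split is particular to these genes was not tested. In RNA of a whole culture, fewer dividing cells and less RNA in each dividing cell cannot be told apart.

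**Figure D1:**
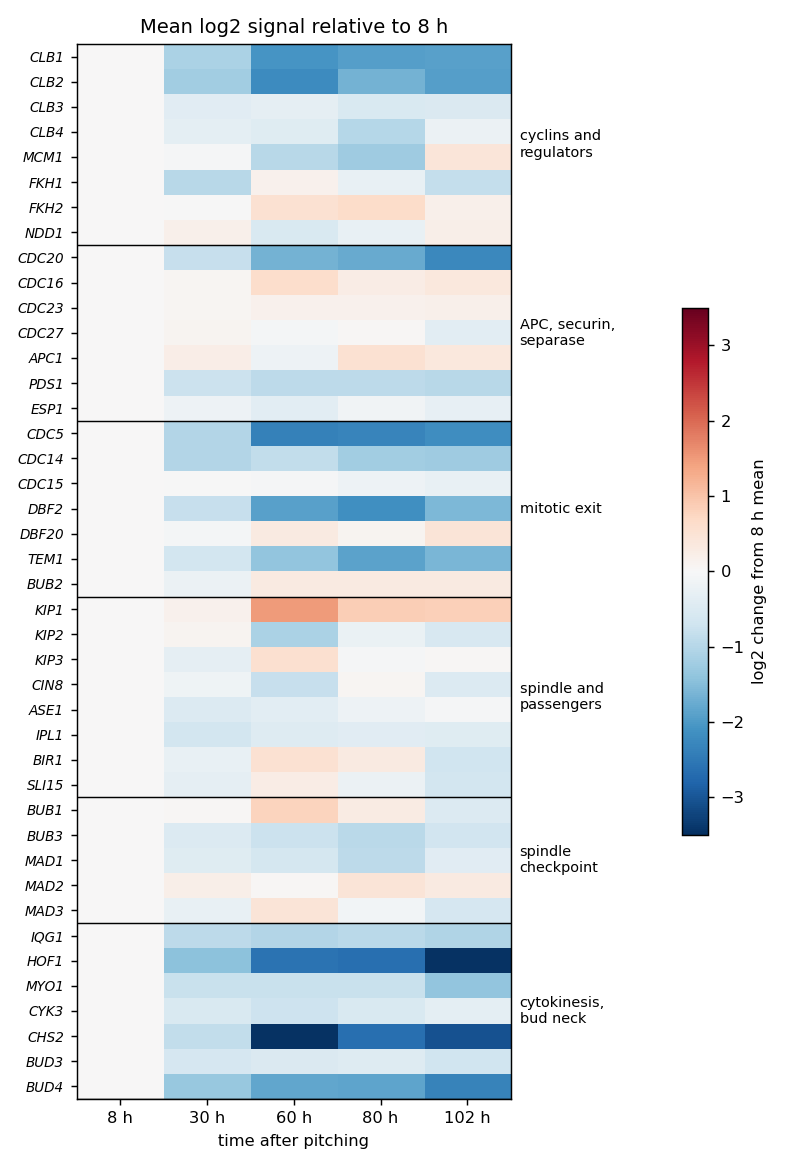
Mean log2 signal of the 42 genes at each time relative to the 8 h mean, in rows grouped by role, with colour from blue (lower) to red (higher). The cytokinesis rows and those of CLB1, CLB2, CDC20, CDC5, DBF2 and TEM1 are blue from 30 h on, while KIP1 is red from 60 h on.

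Among cyclins and transcription factors, the paralogous main mitotic cyclins CLB1 and CLB2 fell together and stayed low. CLB1 gave signals of 191, 166 and 182 at 8 h, 71.6 and 96.2 at 30 h, 50.2, 46.2 and 33.0 at 60 h, 56.8, 39.6 and 45.6 at 80 h, and 38.6, 58.4 and 48.8 at 102 h. CLB2 gave 124, 132 and 141 at 8 h, 36.0 and 89.8 at 30 h, 30.5, 28.7 and 26.8 at 60 h, 43.5, 36.5 and 46.6 at 80 h, and 31.1, 28.4 and 46.4 at 102 h. For both genes every 8 h array was above every later array. The CLB1 arrays of 60, 80 and 102 h overlapped, while in CLB2 all 80 h arrays were above all 60 h arrays and those of 102 h overlapped both. Between 8 h and 102 h CLB1 fell by 1.90 ± 0.23 (limma adjusted p = 2.58e-05) and CLB2 fell by 1.94 ± 0.30 (adjusted p = 0.000173). CLB3 and CLB4, the cyclins that act earlier on spindle assembly, moved less. CLB3 was highest at 8 h, with a mean of 316, and lowest at 80 h, with 219.5, and from 8 h to 102 h it fell by 0.50 ± 0.12 (adjusted p = 0.00456).

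CLB4 gave 123, 107 and 98.2 at 8 h, 84.9 and 87.8 at 30 h, 89.0, 95.4 and 62.7 at 60 h, 54.4, 50.7 and 58.8 at 80 h, and 101, 81.9 and 104 at 102 h. The 80 h arrays were thus below all others, and 102 h overlapped 8 h. It fell by 0.57 ± 0.19 from 60 h to 80 h (limma adjusted p = 0.0444), a call made in only 9 of 27 alternative settings, and rose by 0.80 ± 0.19 from 80 h to 102 h (adjusted p = 0.0124). MCM1, the MADS-box factor that binds at these promoters and at many others, had a trough at the same time. Its signals were 153, 274 and 239.6 at 8 h, 214 and 205 at 30 h, 65.7, 132 and 153 at 60 h, 93.9, 97.6 and 81.9 at 80 h, and 303, 244 and 329 at 102 h. The 102 h arrays lay far above those of 80 h and overlapped those of 8 h. MCM1 rose by 1.67 ± 0.28 from 80 h to 102 h (adjusted p = 0.00268), the single call of that interval made in all 27 alternatives. Its fall from 30 h to 60 h was called in 13 of 27. It was -0.56 without 60 h replicate 1, the lowest array of that time (adjusted p = 0.0958), and -0.45 with the 3 low-5′ arrays left out (adjusted p = 0.0901).

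FKH2, a forkhead factor that works with Mcm1, ran the other way. It gave 294, 309 and 289 at 8 h, 343 and 257 at 30 h, 372, 449 and 466 at 60 h, 425, 496 and 468 at 80 h, and 304, 376 and 338 at 102 h. It was higher at 60 h than at 30 h by 0.52 ± 0.16 (limma adjusted p = 0.0271) and fell by 0.45 ± 0.14 from 80 h to 102 h (adjusted p = 0.0481), the latter called in 15 of 27 alternatives. The related forkhead gene FKH1 (highest at 60 h, lowest at 30 h, F-test adjusted p = 0.209) and the coactivator gene NDD1 (highest at 102 h, lowest at 60 h, F-test adjusted p = 0.0755) did not pass the test. FKH1 ranged at 60 h from 30.2 to 128, its widest spread at any time. It gave 128 and 82.4 on replicates 1 and 2 of 60 h, the arrays of low 5′ signal, and 30.2 on replicate 3.

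In the anaphase-promoting complex group the activator and its target fell, and most core subunits did not pass a test. CDC20, the activator that starts anaphase, gave 181, 267 and 259.9 at 8 h, 125 and 138 at 30 h, 81.7, 64.9 and 77.8 at 60 h, 68.1, 65.4 and 72.7 at 80 h, and 39.2, 60.8 and 48.3 at 102 h. Arrays of 8, 30 and 60 h formed separate ranges in falling order, 60 h and 80 h overlapped, and all 102 h arrays were below all earlier ones. CDC20 fell by 2.25 ± 0.20 from 8 h to 102 h (limma adjusted p = 2.58e-06). PDS1, the securin that Cdc20 targets, gave 154, 89.7 and 94.7 at 8 h, 57.5 and 73.0 at 30 h, 63.5, 73.0 and 41.4 at 60 h, 55.3, 53.3 and 64.3 at 80 h, and 46.8, 61.0 and 60.7 at 102 h. Only the 8 h arrays stood apart, and PDS1 fell by 0.97 ± 0.26 from 8 h to 102 h (adjusted p = 0.00688). The highest PDS1 value, 154, was on 8 h replicate 1, an array of low 5′ signal, and without that array PDS1 did not pass the F-test. With the 3 low-5′ arrays left out its change from 8 h to 102 h was -0.73.

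CDC27, a core subunit, gave 419, 415 and 404 at 8 h, 494 and 394 at 30 h, 320.0, 415 and 453 at 60 h, 433, 390.3 and 454 at 80 h, and 335, 327 and 291 at 102 h. Its 102 h arrays lay below the 8 h arrays, with a fall of 0.38 ± 0.15 (limma adjusted p = 0.0435). The call was made in 15 of 27 alternatives, and its F-test over all times had an adjusted p of 0.0707. The core subunit genes CDC16 (highest at 60 h, lowest at 8 h), CDC23 (highest at 102 h, lowest at 8 h) and APC1 (highest at 80 h, lowest at 60 h) and the separase gene ESP1 (highest at 8 h, lowest at 60 h) passed neither the F-test nor any comparison. APC1 gave 177 on 8 h replicate 1 and 187 on 60 h replicate 1, which are the arrays of lowest 5′ signal, and between 288 and 432 on the other 12 arrays. CDC16 gave 201 on 8 h replicate 1, and 138 and 112 on the other 8 h arrays. With the control 5′ to 3′ ratio as covariate CDC16 changed by 0.62 from 8 h to 102 h (limma adjusted p = 0.00393).

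Of the 7 mitotic exit genes, 4 were called lower at 102 h than at 8 h, or 57.1% against 28.6% of all probe sets. Called higher was 1, or 14.3% against 21.6%. CDC5, the polo kinase that acts in both mitotic entry and exit, gave 591, 537 and 522 at 8 h, 222 and 325 at 30 h, 139, 91.7 and 96.2 at 60 h, 113, 122 and 99.3 at 80 h, and 97.2, 141 and 132 at 102 h. DBF2, a kinase of the exit network, gave 448, 397 and 348 at 8 h, 219 and 235 at 30 h, 125, 84.6 and 113 at 60 h, 88.0, 84.4 and 94.2 at 80 h, and 120.1, 131 and 148 at 102 h. TEM1, the GTPase at the top of the network, gave 169, 171 and 172 at 8 h, 98.5 and 122 at 30 h, 74.7, 76.0 and 50.9 at 60 h, 42.8, 50.0 and 46.9 at 80 h, and 53.9, 59.8 and 54.3 at 102 h. In each of the 3 genes the ranges at 8, 30 and 60 h did not touch. By 102 h, relative to 8 h, CDC5 fell by 2.17 ± 0.20 (limma adjusted p = 4.00e-06), DBF2 fell by 1.58 ± 0.16 (adjusted p = 8.44e-06) and TEM1 fell by 1.61 ± 0.18 (adjusted p = 1.44e-05). The phosphatase gene CDC14 was highest at 8 h and lowest at 102 h and fell by 1.24 ± 0.24 (adjusted p = 0.00104).

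DBF20 is the paralog of DBF2 and went the other way. Its means were 203, 194, 252, 215 and 279.6 in time order, highest at 102 h and lowest at 30 h, and it rose by 0.46 ± 0.13 from 8 h to 102 h (limma adjusted p = 0.00916). On the authors' scale as deposited this call was lost. BUB2, part of the GTPase-activating complex that restrains Tem1, was lowest at 30 h, with a mean of 127, and highest at 80 h, with 184, and rose by 0.51 ± 0.16 from 30 h to 60 h (adjusted p = 0.0336), a call lost without the 3 arrays of low 5′ signal. CDC15, the kinase between Tem1 and Dbf2, ran from a mean of 316 at 8 h to 261 at 102 h and did not pass (F-test adjusted p = 0.421). DBF2 itself rose by 0.58 ± 0.16 from 80 h to 102 h (adjusted p = 0.0283), when its 102 h arrays lay above those of 80 h and below those of 8 h. This rise was not called on the deposited scale (adjusted p = 0.245).

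**Figure D2:**
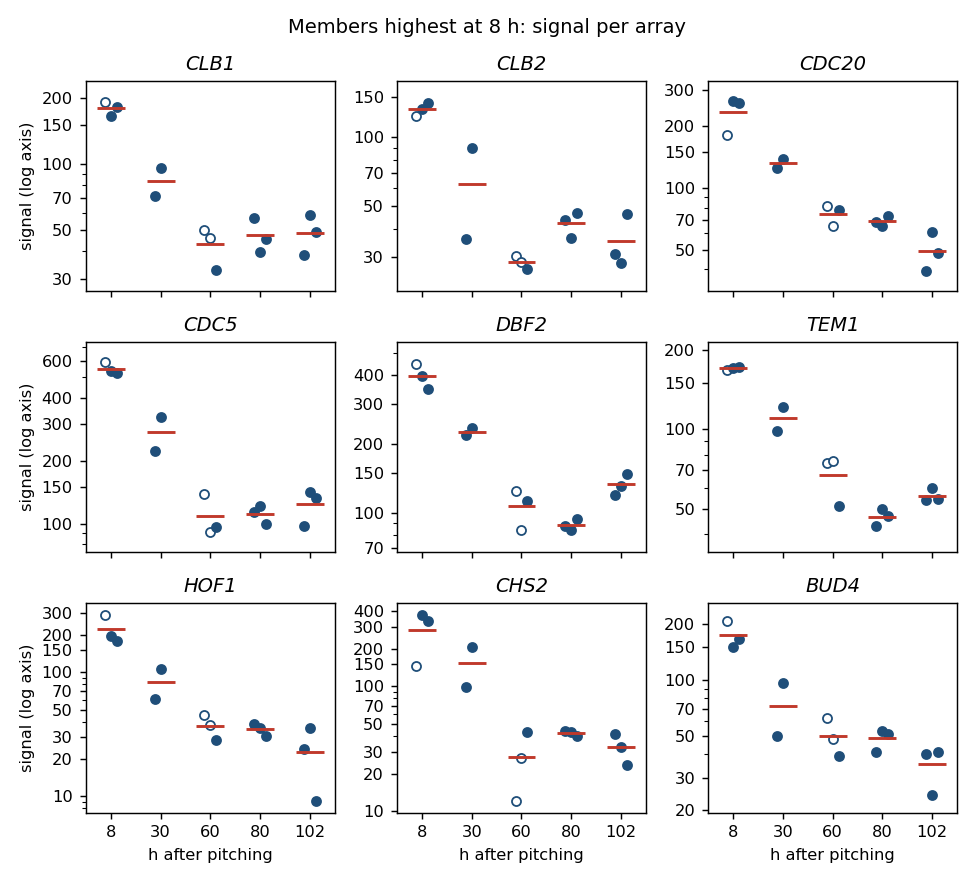
Signal per array (log axis) of 9 genes highest at 8 h, against hours after pitching, with red bars at time means and open circles for the 3 arrays of low 5′ signal. In each panel every 8 h array lies above every array of 60 h and later. Both 30 h arrays lie between them in CLB1, CDC20, CDC5, DBF2, TEM1 and HOF1, while CLB2 and BUD4 have a 30 h array within the later range and CHS2 has one above 8 h replicate 1.

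The spindle group was mixed, and KIP1 was its clearest rise. KIP1, 1 of the paired kinesin-5 motors that push spindle poles apart, gave 102, 87.4 and 95.8 at 8 h, 119.9 and 92.6 at 30 h, 290.3, 252 and 263 at 60 h, 194, 154 and 172 at 80 h, and 194, 176 and 139 at 102 h. Every array from 60 h on was above every array of 8 h and 30 h. KIP1 rose by 1.35 ± 0.18 from 30 h to 60 h (limma adjusted p = 0.000218), fell by 0.64 ± 0.16 from 60 h to 80 h (adjusted p = 0.0143) and was higher at 102 h than at 8 h by 0.82 ± 0.16 (adjusted p = 0.000939). The other kinesin-5 gene, CIN8, was dim, with means between 21.4 at 60 h and 35.6 at 80 h, and did not pass (F-test adjusted p = 0.331). KIP3, the kinesin-8 that shortens microtubules, gave 457, 382 and 367 at 8 h, 299 and 339.7 at 30 h, 559, 705 and 533 at 60 h, 395, 395 and 383 at 80 h, and 403, 394 and 434 at 102 h. Its 60 h arrays were above all others, and it rose by 0.90 ± 0.15 from 30 h to 60 h (adjusted p = 0.000933) and fell by 0.60 ± 0.13 to 80 h (adjusted p = 0.00798).

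BIR1, the survivin homologue of the passenger complex, gave 105, 63.0 and 45.7 at 8 h, 58.4 and 54.0 at 30 h, 150.2, 95.02 and 65.6 at 60 h, 74.6, 78.2 and 100.3 at 80 h, and 39.0, 39.2 and 45.4 at 102 h. The highest arrays at 8 h and at 60 h were those of lowest 5′ signal. BIR1 fell by 1.03 ± 0.32 from 80 h to 102 h, when no such array is involved (limma adjusted p = 0.0432, and 0.0793 with arrays centred on their median). KIP2, a kinesin that lengthens cytoplasmic microtubules, was highest at 30 h, with a mean of 95.4, and lowest at 60 h, with 44.8, and fell by 1.19 ± 0.36 between them (adjusted p = 0.0245). That call was made in 21 of 27 alternatives. With the 3 low-5′ arrays left out, which keeps 68.8 on the remaining 60 h array, the difference was -0.47. At 8 h KIP2 gave 57.3 on replicate 1, the array of lowest 5′ signal, and 125 and 99.3 on the others. From 8 h to 102 h KIP2 was not called. With the control 5′ to 3′ ratio as covariate its change over that span was -0.99 (limma adjusted p = 0.000641). ASE1, the midzone bundling protein (highest at 8 h, lowest at 30 h), IPL1, the Aurora kinase (highest at 8 h, lowest at 30 h), and SLI15, its partner (highest at 60 h, lowest at 102 h), passed no test. At 60 h SLI15 gave 181 on replicate 1, the array of lowest 5′ signal, and 80.4 and 59.2 on replicates 2 and 3.

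Of 5 checkpoint genes, BUB1 and MAD3 peaked at 60 h and BUB3 fell. BUB1, a checkpoint kinase, gave 96.0, 62.0 and 62.7 at 8 h, 78.5 and 71.1 at 30 h, 149, 109 and 113 at 60 h, 71.2, 109 and 85.7 at 80 h, and 47.4, 49.9 and 58.8 at 102 h. MAD3, a part of the complex that inhibits Cdc20, gave 215, 209 and 166 at 8 h, 187 and 145 at 30 h, 349, 212 and 255 at 60 h, 174, 196 and 183 at 80 h, and 149, 106 and 138 at 102 h. In both genes the highest of the 14 values was on 60 h replicate 1, the array with the lowest 5′ signal, and all 102 h arrays were below all 8 h arrays. From 30 h to 60 h BUB1 rose by 0.71 ± 0.25 (limma adjusted p = 0.0458) and MAD3 rose by 0.69 ± 0.22 (adjusted p = 0.0319), but with the 3 low-5′ arrays left out the differences were 0.60 and 0.63, with an adjusted p of 0.105 and 0.0506. BUB1 fell by 0.75 ± 0.22 from 80 h to 102 h (adjusted p = 0.0359), and MAD3 fell by 0.59 ± 0.20 from 8 h to 102 h (adjusted p = 0.0235).

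BUB3, the partner of Bub1, gave 223, 224 and 187 at 8 h, 156 and 144 at 30 h, 132, 136 and 108 at 60 h, 147, 100.0 and 87.0 at 80 h, and 133, 146 and 122 at 102 h. All 8 h arrays were above all later ones, and BUB3 fell by 0.66 ± 0.18 from 8 h to 102 h (limma adjusted p = 0.0093). MAD1 was highest at 8 h, with a mean of 349, and lowest at 80 h, with 179.7, and passed the F-test (adjusted p = 0.0256) but no single comparison. Its highest arrays at 8 h and at 60 h, 474 and 309, were those of lowest 5′ signal. With the control 5′ to 3′ ratio as covariate MAD1 changed by -0.59 from 30 h to 60 h (limma adjusted p = 0.00138). From 80 h to 102 h it then changed by 0.55 (adjusted p = 0.000589). MAD2, which Mad1 recruits to unattached chromosomes, was highest at 80 h, with 337, and lowest at 8 h, with 254, and did not pass (adjusted p = 0.233). At 8 h MAD2 gave 176 on replicate 1, the array of lowest 5′ signal, and 299 and 287 on the others.

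**Figure D3:**
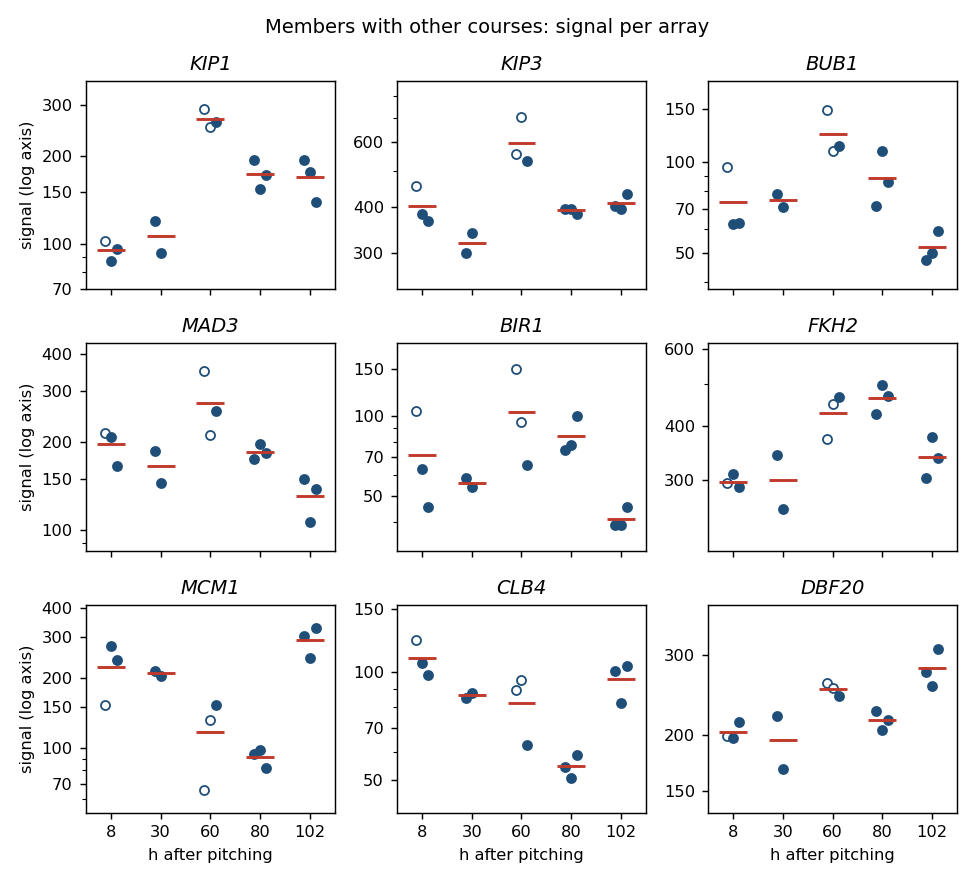
Signal per array (log axis) of 9 genes with other courses, against hours after pitching, with red bars at time means and open circles for the 3 arrays of low 5′ signal. KIP1, KIP3, BUB1, MAD3 and BIR1 are highest at 60 h, MCM1 and CLB4 are lowest at 80 h, FKH2 is highest at 80 h and DBF20 at 102 h.

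All 7 cytokinesis and bud neck genes had their highest mean at 8 h, and all 7 were lower at 102 h. HOF1, an F-BAR protein that links the contractile ring to the septum, gave 290.5, 196 and 178 at 8 h, 60.5 and 105 at 30 h, 45.0, 37.4 and 28.3 at 60 h, 38.2, 35.3 and 30.7 at 80 h, and 23.9, 35.7 and 9.16 at 102 h, the last below background. CHS2, the chitin synthase that lays down the primary septum, gave 146, 371 and 332 at 8 h, 98.7 and 207 at 30 h, 12.2, 26.5 and 42.7 at 60 h, 43.7, 42.7 and 40.0 at 80 h, and 41.6, 32.6 and 23.6 at 102 h. BUD4, which marks the bud neck for axial budding, gave 207, 151 and 166 at 8 h, 49.8 and 96.1 at 30 h, 62.9, 48.5 and 39.3 at 60 h, 41.0, 53.5 and 51.5 at 80 h, and 40.3, 24.3 and 41.2 at 102 h.

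In these 3 genes the 8 h arrays were above every array from 60 h on. Over the whole course HOF1 fell by 3.45 ± 0.41 (limma adjusted p = 2.75e-05), CHS2 fell by 3.04 ± 0.45 (adjusted p = 0.000143) and BUD4 fell by 2.34 ± 0.29 (adjusted p = 3.46e-05). The septum gene CHS2 dropped by 2.58 ± 0.51 between 30 h and 60 h (adjusted p = 0.00263). The lowest CHS2 values at 8 h and at 60 h, 146 and 12.2, were on the arrays of lowest 5′ signal, and without the 3 such arrays that drop was -1.74 (adjusted p = 0.0051), next to -1.29 from 8 h to 30 h (adjusted p = 0.0331) and -3.47 over the whole course. The type II myosin gene MYO1 went from a mean of 507 at 8 h to 190.3 at 102 h, a fall of 1.39 ± 0.21 (adjusted p = 0.000137). IQG1, the IQGAP protein that recruits the actin ring, went from 856 to 409, a fall of 1.06 ± 0.22 (adjusted p = 0.00131). BUD3, the partner of Bud4, was highest at 8 h and lowest at 102 h and fell by 0.69 ± 0.21 (adjusted p = 0.0145), though its F-test did not pass (adjusted p = 0.0662). CYK3, which acts in septum formation, was highest at 8 h, lowest at 60 h, with 298, and back to 386 at 102 h, 0.34 ± 0.13 below 8 h (adjusted p = 0.0373). That call was made in 20 of 27 alternatives.

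Across the whole set, the course can be read interval by interval. The comparisons share arrays, 30 h being the end of one and the start of the next, and each is given by its own values. From 8 h to 30 h no gene of the 42 passed limma's test, where 0.244% of all probe sets did, 0.112% higher and 0.131% lower. At an unadjusted p under 0.05 there were 18, all lower, or 42.9% of the set, next to 10.2% of all probe sets lower and 6.33% higher at that p. The changes were negative in 33 of 42, with a median of -0.36 against -0.04 for all probe sets tested. In 22 genes both 30 h arrays lay below all 8 h arrays and in 0 above, while over all probe sets 21.4% lay below and 13.4% above. HOF1 was lower by 1.44 ± 0.46 (adjusted p = 0.167), BUD4 by 1.32 ± 0.32 (adjusted p = 0.0846), CLB2 by 1.22 ± 0.33 (adjusted p = 0.103) and CDC5 by 1.03 ± 0.22 (adjusted p = 0.0662), and none of these passed.

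This interval depended on single arrays. Without the 3 arrays of low 5′ signal 11 genes were called, all lower: CLB1, CDC20, CDC5, CDC14, DBF2, ASE1, IQG1, MYO1, CYK3, CHS2 and BUD4, and 434 of all 5336 probe sets tested were called in that fit. The count was 7 without 60 h replicate 1, an array that enters only through the shared spread. In that fit 160 of all 5334 probe sets were called, against 13 of 5338 with all arrays. Without 30 h replicate 2 the median change of the 42 genes was -0.43. The 2 arrays of 30 h differed for these genes: replicate 1 was below replicate 2 in 28 of 42, or 66.7%, against 49.6% of all probe sets, and CLB2 gave 36.0 on replicate 1 and 89.8 on replicate 2.

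Between 30 h and 60 h 15 genes were called, or 35.7% against 28% of all probe sets. Lower were CLB1, CLB2, MCM1, CDC20, CDC5, DBF2, TEM1, KIP2 and CHS2, or 21.4% against 11.7%. Higher were FKH2, BUB2, KIP1, KIP3, BUB1 and MAD3, or 14.3% against 16.2%. The falls included CDC5, by 1.33 ± 0.22 (limma adjusted p = 0.000998), and DBF2, by 1.10 ± 0.18 (adjusted p = 0.000822). Only CDC5 and KIP1 were called in all 27 alternatives. CLB2 was called in 16 of them, and its change was -0.33 without 30 h replicate 2 (adjusted p = 0.542). Without 30 h replicate 2 the count was 4, and 559 of all 5340 probe sets were called in that fit, against 1493 of 5338 with all arrays. With the arrays of both times alone the count was 2, CDC5 and KIP1, and 230 of all 5338 probe sets were called.

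From 60 h to 80 h 3 genes were called, CLB4, KIP1 and KIP3, all lower, which is 7.14% against 20.3% of all probe sets in either direction with 9.42% higher and 10.9% lower. On the deposited scale, which moves the median of all probe sets by 0.25 in this interval, the count was 7, all higher, and none of these 3 was among them. From 80 h to 102 h 6 genes were called, or 14.3% against 15.9%: MCM1, CLB4 and DBF2 rose, which is 7.14% against 7.59%, and FKH2, BIR1 and BUB1 fell, which is 7.14% against 8.36%. The count ran from 1 to 11 as single arrays were left out. It was lowest without 80 h replicate 2 or without 102 h replicate 3, where 378 of all probe sets were called each. It was highest without 60 h replicate 1, where 1353 of all probe sets were called. Centring the arrays on their median kept the 3 rises and lost the 3 falls, with FKH2 at -0.43 (adjusted p = 0.0608), BUB1 at -0.65 (adjusted p = 0.0562) and BIR1 at -0.82 (adjusted p = 0.0793).

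Over the full span from 8 h to 102 h, 21 of the 42 genes were called, or 50%, next to 50.2% of all probe sets, so the share called did not stand out. The direction was uneven: 19 were lower, or 45.2% against 28.6%, and 2 were higher, KIP1 and DBF20, or 4.76% against 21.6%. The median change was -0.49, against -0.09 for all probe sets. By role, 3 of 8 cyclin and factor genes, 3 of 7 in the anaphase-promoting complex group, 4 of 7 mitotic exit genes, 2 of 5 checkpoint genes and all 7 cytokinesis genes were called lower. Of 8 spindle genes 0 were called lower and 1 was called higher. The spindle genes KIP2 and BIR1 were each called lower in 3 of 27 alternatives. Of the 21 calls, 16 were made in all 27 alternatives, and the other 5 were CDC27, DBF20, MAD3, CYK3 and BUD3. In the fit without the 3 low-5′ arrays 20 were lower and 3 higher.

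**Figure D4:**
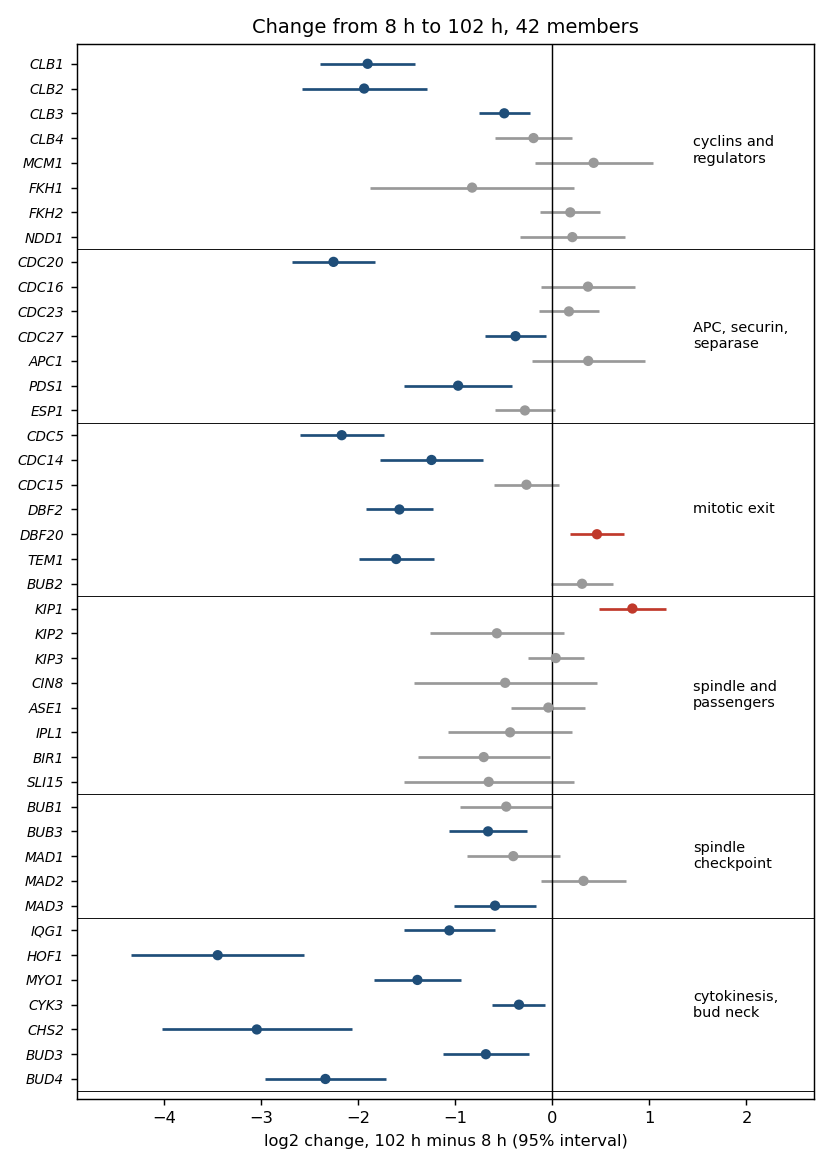
Change of the 42 genes from 8 h to 102 h on the log2 scale, with 95% intervals, in blue where called lower, red where called higher and grey where not called. All 7 cytokinesis genes are blue, from -0.34 for CYK3 to -3.45 for HOF1, and the red points are KIP1 at 0.82 and DBF20 at 0.46.

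The 12 genes of the set that textbook knowledge places in the CLB2 cluster carried most of the falls. They are CLB1, CLB2, CDC5, CDC20, DBF2, ASE1, IQG1, HOF1, MYO1, CHS2, BUD3 and BUD4. From 8 h to 30 h all 12 had negative changes and no call, with a median of -0.89 against -0.04 for all probe sets. From 30 h to 60 h 6 fell, or 50% against 11.7% of all probe sets, with a median of -0.90 against 0.05. Of the 12, 11 fell from 8 h to 102 h, or 91.7% against 28.6%, with a median of -1.92 against -0.09. The exception was ASE1, at -0.04 ± 0.18 (limma adjusted p = 0.861). Their summed signal was 3713 to 4070 on the 8 h arrays, 1749 to 2343 at 30 h, 1210 to 1871 at 60 h, 1420 to 1495 at 80 h and 1254 to 1390 at 102 h. The highest sums at 8 h and at 60 h, 4070 and 1871, were on the arrays of lowest 5′ signal, whose part was not tested. The factors that drive the cluster did not pass the test over the same span. MCM1 changed by 0.43 ± 0.28 (adjusted p = 0.225), FKH2 by 0.18 ± 0.14 (adjusted p = 0.296) and NDD1 by 0.21 ± 0.25 (adjusted p = 0.508).

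Paralogs with related proteins did not always move alike. Between 8 h and 102 h DBF2 changed by -1.58 and DBF20 by 0.46, both past the test in opposite directions. CLB1 and CLB2 changed by -1.90 and -1.94, and CLB3 and CLB4 by -0.50 and -0.19, of which CLB4 did not pass (adjusted p = 0.399). KIP1 changed by 0.82, and CIN8 by -0.49 with a wide interval from -1.43 to 0.46 (limma adjusted p = 0.37). The differences within pairs were not tested.

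Other genes of the same processes are given by lists that are not part of the 42. Of 18 further G2/M and mitotic exit genes, 17 were tested, and from 8 h to 102 h 12 fell and 1 rose, with a median of -1.13. That is 70.6% lower and 5.88% higher, against 28.6% and 21.6% of all probe sets, whose median was -0.09. SWI5, the factor for early G1 genes, went from a mean of 157 to 15.6, a change of -3.69 (limma adjusted p = 0.000451), and SWE1, the kinase that restrains Cdc28, from 142 to 19.1, a change of -2.86 (adjusted p = 0.000166). Each was above background on 1 of 3 arrays at 102 h, so these sizes rest in part on signals below background. BUD8, a gene of bud site selection, was the 1 call of the list from 8 h to 30 h, at -1.03 (adjusted p = 0.0367).

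The 9 anaphase-promoting complex subunits outside the set were higher in part. From 30 h to 60 h 5 rose and 0 fell, with a median of 0.53, or 55.6% higher against 16.2% of all probe sets. The list's median deviation was 0.59, 0.34 and 0.23 on replicates 1 to 3 of 60 h, and -0.01 on 8 h replicate 1 against -0.45 and -0.47 on the other 8 h arrays. It was thus highest within each of these times on the array of lowest 5′ signal, whose part in the rise was not tested. SWM1 went from a mean of 50.9 to 181 (1.69, limma adjusted p = 0.0219) and APC4 from 59.9 to 143 (1.22, adjusted p = 0.0164). At 102 h 2 of the 9 were called higher than at 8 h, DOC1 by 1.65 (adjusted p = 3.26e-05) and SWM1 by 1.46 (adjusted p = 0.0145), or 22.2% against 21.6% of all probe sets.

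For structural genes, the shares lower from 8 h to 102 h are read against 28.6% of all probe sets lower and 21.6% higher. Of 11 cohesin and condensin genes tested, 3 fell and 1 rose, with a median of -0.34, and the 27.3% lower is near the share of all probe sets. The condensin gene SMC2 changed by -1.54 (limma adjusted p = 9.22e-05) and the cohesin gene SMC3 by -1.24 (adjusted p = 0.000655). Of 19 kinetochore and microtubule genes 9 fell and 0 rose, with a median of -0.41 and 47.4% lower. NUF2 of the Ndc80 complex changed by -2.62 (adjusted p = 0.000173), with 1 of 3 arrays above background at 102 h, and DAD2 of the Dam1 complex, below background on all 3 arrays at 102 h, was at least 4.00-fold lower than at 8 h (adjusted p = 0.000453). Of 11 septin and further cytokinesis genes tested 7 fell and 0 rose, with a median of -0.67 and 63.6% lower, among them the septin genes CDC3 (-1.38, adjusted p = 3.53e-05) and CDC10 (-1.11, adjusted p = 0.00173).

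Genes of the start of the cycle gave a mixed picture. Of 29 G1/S and DNA replication genes tested, 11 fell and 4 rose from 8 h to 102 h, with a median of -0.37. The shares were 37.9% lower and 13.8% higher, against 28.6% and 21.6% of all probe sets. The G1 cyclin gene CLN3 rose by 1.50 (limma adjusted p = 0.00446) and the ribonucleotide reductase gene RNR1 by 1.49 (adjusted p = 1.99e-05). As a check on other cell fates, 11 markers of meiosis and sporulation were listed. From 30 h to 60 h 2 of them rose, NDT80 by 1.59 (adjusted p = 0.00453) and SPO11, below background on both 30 h arrays, at least 2.499-fold (adjusted p = 0.00463), which is 18.2% against 16.2% of all probe sets. The markers' median deviation was 0.69, 0.34 and 0.16 on replicates 1 to 3 of 60 h, and 0.16 on 8 h replicate 1 against -0.27 and -0.46 on the other 8 h arrays. The part of low 5′ signal in this was not tested. From 8 h to 102 h 2 were called higher and 2 lower, or 18.2% each, against 21.6% higher and 28.6% lower of all probe sets. Whether these markers bear on the mitotic genes was not tested.

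**Figure D5:**
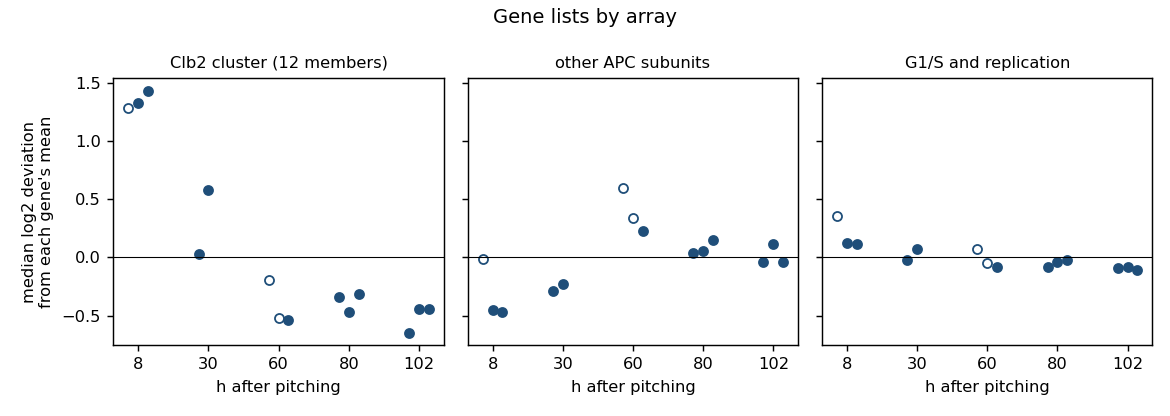
Median log2 deviation of 3 gene lists on each of the 14 arrays from each gene's mean over the arrays, against hours after pitching, with open circles for the 3 arrays of low 5′ signal. The 12 CLB2 cluster genes are lower on both 30 h arrays than on the 8 h arrays, the other anaphase-promoting complex subunits are highest at 60 h, and the G1/S genes lie between 0.11 and 0.35 at 8 h and between -0.11 and 0.07 on all later arrays.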

How the data were processed

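Signal intensity of each probe set came from single-colour Affymetrix yeast arrays hybridised with biotin-labelled RNA, and the authors deposited it as 1 table of 14 arrays. GCOS 5.0 is named in the submitters' processing notes, but the target used for scaling was not given in the sources used here. Deposited medians spanned 0.777 on the log2 scale, over a tolerance of 0.2, so the values were quantile normalized. Of 10928 probe sets, 7244 had 1 annotated gene, 5498 of them in S. cerevisiae and 1746 in another organism. Symbols were updated through a RefSeq gene table of assembly R64, which gave the same symbol for 99.8%. No coordinates are used.

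The background threshold, a signal of 22.1, was the 95th percentile of the dimmer part of all probe sets, split at the median of each array, and its median, 5.60, was the floor before log2. A probe set was tested when 2 arrays of some time passed the threshold. One linear model with a mean per time was fitted to all 14 arrays with limma 3.58.1 in R 4.3.3, with an intensity trend and 9 residual degrees of freedom. A moderated F-test and 5 comparisons were run. The steps were tested on simulated data. The small number of arrays limits the precision.

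Values on every array are given for the 3 genes of each role group with the smallest F-test p and for genes called from 8 h to 30 h or from 80 h to 102 h. The other genes are given by time means or by their highest and lowest time. Of genes outside the 42, at most 2 per list and comparison are named, chosen by the size of a change that passed. The genes, lists and settings were chosen with earlier results of these data known. A fold given as at least some value sets a gene below background on all arrays of a time to the threshold. The 27 alternative settings were 13 other ways of scaling, filtering and fitting and the omission of each of the 14 arrays. A gene list planned with the others is not reported here.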

Additional observations from a re-analysis of the deposited data

How the results depend on the processing

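No called change of a gene among the 42 reversed under any of the 27 alternatives. Over these called changes and all alternatives, 1061 values were called again and 154 were not. Calls that genes gained only in an alternative are outside this tally. The count for 8 h to 30 h was 0, with 13 of all 5338 probe sets called. It became 4 on the deposited scale (35 of all 5337) and 11 when the control 5′ to 3′ ratio entered as covariate (385 of 5338). Without the 3 arrays of low 5′ signal the median change of the 42 genes was -0.27, against -0.02 for all probe sets. The count for 30 h to 60 h, 15 (1493 of all 5338), became 2 with the arrays of both times alone (230 of 5338). The count for 60 h to 80 h, 3 (1085 of all 5338), became 7 on the deposited scale (1300 of 5337) and 5 with the covariate (1509 of 5338). The count for 80 h to 102 h was 6 (851 of all 5338). It became 10 on the deposited scale (1547 of 5337) and 3 with arrays centred on the S. cerevisiae median (703 of 5333). It was 12 with the covariate (2027 of 5338) and 11 with the arrays of both times alone (2588 of 5338). Leaving out 1 array at a time gave 25 to 30 genes in the F-test, and in time order 0 to 7, 4 to 16, 1 to 7 and 1 to 11, and 18 to 22 from 8 h to 102 h. Over all probe sets the same fits called 3251 to 3973 in the F-test and 2206 to 3101 from 8 h to 102 h. In time order the other comparisons called 0 to 301, 559 to 1835, 545 to 1541 and 366 to 1353. Other floors, filters and probe set rules moved no count by more than 1 gene. On the deposited scale the median over all probe sets was -0.18 from 8 h to 30 h, 0.25 from 60 h to 80 h and -0.31 from 80 h to 102 h. Fits without the 3 arrays keep 1 array at 60 h, which is assumed to vary like the others.

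Deviations of arrays with the same replicate number correlated from -0.136 to 0.740. All 3 same-numbered pairs of 8 h and 60 h were over 0.1, at 0.740, 0.283 and 0.637, but these times are not compared directly. In no comparison made did every pair exceed 0.1, so the numbers were not taken to pair arrays. With the replicate block the counts were 29 in the F-test, 0, 15, 3 and 6 in time order, and 20 from 8 h to 102 h. Of all 5338 probe sets that fit called 3858 in the F-test, 1, 1690, 1251 and 920 in time order, and 2798 from 8 h to 102 h. Calls not made with the block were BUB1 from 30 h to 60 h (adjusted p = 0.0547), CLB4 from 60 h to 80 h (0.051), FKH2 from 80 h to 102 h (0.0559) and CDC27 from 8 h to 102 h (0.056), and calls made only with it were CDC16, MAD3 and MYO1 in the first 3 of these intervals. A block for chip lot or scan was planned and not run, because the scanner records used here hold only the chip type.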
